A study of Danio rerio with 12 samples.

Results

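The genes described here encode growth factors, their receptors, the proteins that bind or inhibit the ligands outside the cell, and the SMAD proteins that carry the signal of the TGF-beta superfamily. They were chosen by gene symbol, with earlier results of these data known. The rule itself used no measured change. It took the single-gene annotations that start with the family names fgf, bmp, bmpr, tgfb, igf, igfbp, pdgf, wnt, fzd, inhb, smad, gdf, nrg, dkk or erbb, and igf2bp genes were left out. This gave 84 genes out of 8793 genes annotated on the array. They were covered by 102 probe sets, and each gene is represented by its probe set of highest mean signal across the 12 arrays. The 84 genes comprised 17 of the FGF family, 27 of the TGF-beta family, 10 of the IGF family, 2 PDGF ligands, 21 of the WNT family, 3 of the neuregulin and ERBB family, and 4 whose symbols match although the proteins are neither ligands nor receptors of these pathways. Apart from these 4, the role of each gene, such as ligand or receptor, was set by its symbol alone and was not checked gene by gene. Both PDGF receptors, the pdgfbb and fgf17b ligands, erbb3b and wnt2bb, which have been studied in heart regeneration, were not analysed here.

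The study asked how hearts of adult zebrafish respond to amputation of heart tissue when the hypoxia-inducible factor HIF1a is blocked. Total heart RNA was measured on 12 Affymetrix Zebrafish Genome Arrays, 3 for each of 4 groups: unamputated wild-type hearts of the AB line (WT), WT hearts 7 days after amputation, unamputated dnHIF1a hearts, and dnHIF1a hearts 7 days after amputation. All dnHIF1a fish carried a transgene with cmlc2a:Ert2-Cre-Ert2, a tamoxifen-dependent Cre, together with the reporter cmlc2a:LnL:GFP, and a further transgene, cmlc2a:LrL:dnHIF1a, so that the heart-muscle promoter cmlc2a drives Cre and, after recombination, a dominant-negative HIF1a. Unamputated fish of both lines had no treatment, the labels do not say whether any group received tamoxifen, and the labels name no transgene for the WT fish, so the transgenes, the strain background and the loss of HIF1a function cannot be told apart between the lines. Whether the arrays of 1 group came from separate fish or from pools is not given, so a p-value reflects the spread among these samples alone, and that spread may be technical.

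FGF ligands signal through receptor tyrosine kinases to the MAP kinase cascade, which switches on ETS transcription factors and feedback inhibitors such as Sprouty proteins. TGF-beta, activin and BMP ligands bind paired type I and type II serine/threonine kinase receptors, which phosphorylate receptor-activated SMAD proteins. IGF ligands bind receptor tyrosine kinases and are held in the extracellular space by IGF binding proteins, PDGF ligands recruit epicardium-derived and mural cells, and neuregulins act on ERBB receptors of heart muscle. WNT ligands bind frizzled receptors, and secreted inhibitors, among them dickkopf (DKK) proteins, limit their action. In the injured zebrafish heart these pathways are known for their roles in heart-muscle proliferation, epicardial activation, fibroblast matrix and new vessels.

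Expression is given on the log2 scale of the deposited RMA values, where a step of 1 is a doubling, and the groups were compared with limma over all 15502 tested probe sets. Differences are given on the log2 scale ± SE of the fit, and a gene was called where the Benjamini-Hochberg adjusted p was under 0.05. Medians of the arrays ran from 5.55 to 5.59, and correlations between arrays of 1 group (0.992 to 0.996) lay above those between groups (0.976 to 0.990). Signals of the growth factor genes were low for this array: 59 of the 84 were at or under the median over all genes, and 13 had a mean under 4, for which no fold is given. The list mean of 12 cardiomyocyte markers, which define the labelled tissue, lay between 11.19 and 11.57 on every array. It ran from 11.19 to 11.28 in amputated WT and from 11.44 to 11.57 in amputated dnHIF1a hearts, without overlap. After amputation 1 of the 12 was called higher and 2 lower in WT, and 2 higher in dnHIF1a. Between the lines 1 was called higher and 2 lower in unamputated dnHIF1a hearts, and 2 higher in amputated ones. No value here checks the expression of the transgene.

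Amputation changed 23 of the 84 growth factor genes in WT hearts, 15 upward and 8 downward. The share was close to the background, since 26.2% of all genes on the array were called in that comparison, 11.7% higher and 14.5% lower. In dnHIF1a hearts 6 of 84 were called, 5 upward and 1 downward, against a background of 11.0% (5.83% higher and 5.13% lower). The genes that rose in WT encode ligands (inhbb, igf2b, tgfb1a, pdgfaa, pdgfab), IGF binding proteins (igfbp1a, igfbp2a, igfbp5b), DKK proteins (dkk3b, dkk1b), a TGF-beta receptor (tgfbr2b), a frizzled receptor (fzd7b) and the other proteins tgfbi, fgfr1op2 and bmp2k. Those that fell encode frizzled receptors (fzd10, fzd8a, fzd5), WNT and FGF ligands (wnt4, wnt8b, fgf18a), a BMP receptor (bmpr1ba) and smad3b. Among 25 members brighter than the median gene 11 were called in WT (36.2% of such genes overall), and among the 59 dimmer members 12 were called (16.2% overall). In RNA of whole hearts, fewer cells of a type and less RNA per cell cannot be told apart.

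**Figure D1:**
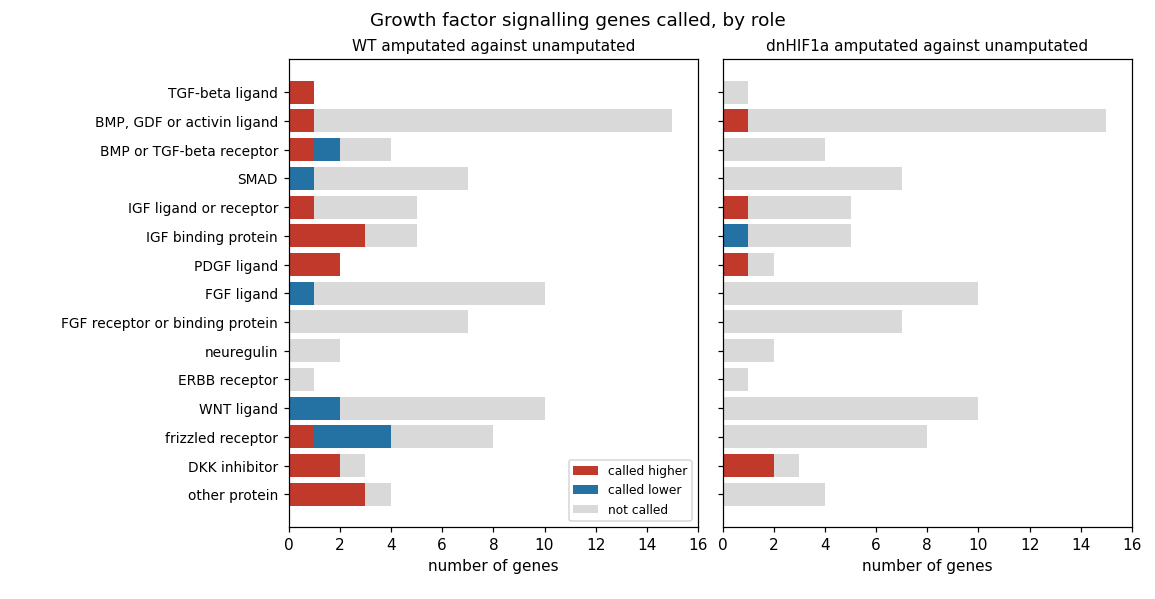
Number of growth factor signalling genes (horizontal axis) called higher, called lower or not called after amputation, by role (vertical axis), in WT hearts on the left and dnHIF1a hearts on the right, with 3 arrays per group. In WT, 3 of 5 IGF binding proteins and both PDGF ligands were called higher and 3 of 8 frizzled receptors lower. None of the 7 FGF receptors and binding proteins was called in either line. Over all genes 11.7% were called higher and 14.5% lower in WT, and 11.0% in either direction in dnHIF1a.

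The median difference of the 84 members was -0.05 in WT and 0.01 in dnHIF1a, beside -0.06 and -0.02 over all genes. Of the 15 genes called higher in WT, 11 had a positive difference in dnHIF1a as well and 12 one of smaller size. Of the 8 called lower, 6 had a negative difference and 8 one of smaller size. These genes were picked by their WT call, which favours large WT differences, so these counts do not compare the lines. The same counts over all genes called in WT are not given here. All 6 genes called in dnHIF1a were also called in WT. Over all genes, 588 of the 964 called in dnHIF1a were called in WT as well (6.69% of all genes). Of the 6 members, 5 had the same direction in both lines (inhbb, dkk3b, igf2b, dkk1b and pdgfaa), and igfbp2a had the opposite one. The test of the difference between the responses called 3 members, with fzd8a above 0 (dnHIF1a minus WT) and igfbp2a and fgfr1op2 under 0. The background was 2.59% (0.989% above and 1.60% under 0), and for the other genes called in WT alone a difference between the lines was not shown. The groups did not overlap for 42 of the 84 members in WT (background 39.4%) and for 23 in dnHIF1a (33.3%).

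**Figure D2:**
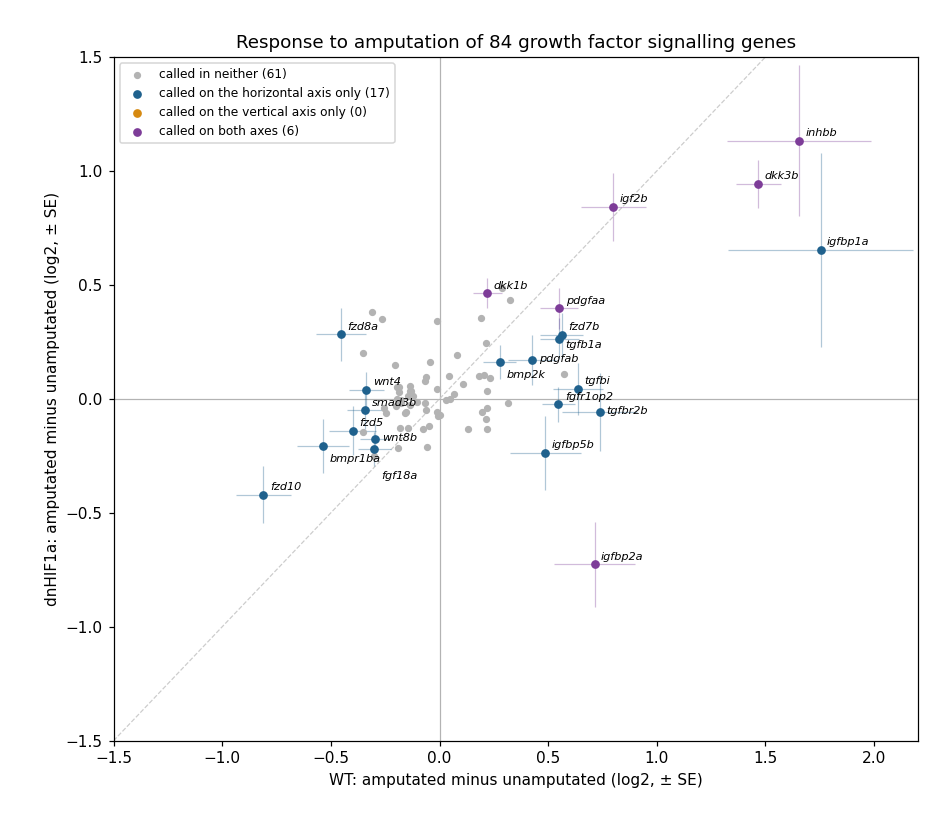
Difference between amputated and unamputated hearts (log2, ± SE) in WT on the horizontal and in dnHIF1a on the vertical axis, 1 point per gene, 84 genes (the 13 with a mean under 4 included), 3 arrays per group; the dashed line marks equal differences. The 6 genes called in both lines include igfbp2a, which lies at 0.71 in WT and -0.73 in dnHIF1a, and 17 genes were called in WT only.

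Marker genes of several cell types moved in the same comparisons. The mean of 13 measured epicardial and fibroblast markers (of 20 listed) ran from 7.11 to 7.28 in unamputated and from 9.04 to 9.55 in amputated WT hearts, with 10 of 13 called higher, and from 7.55 to 7.68 and 8.71 to 8.92 in dnHIF1a, with 11 of 13 called higher. The mean of 15 leukocyte markers (of 25) ran from 7.5 to 7.71 in unamputated and from 8.23 to 8.5 in amputated WT hearts (11 called higher), and from 6.63 to 6.82 and 7.59 to 7.86 in dnHIF1a (12 called higher). The mean of 18 erythrocyte markers (of 29) lay between 7.70 and 8.13 in unamputated and between 8.48 and 9.25 in amputated WT hearts, with 12 called higher and 2 lower, and overlapped between the dnHIF1a groups (7.99 to 8.56 and 8.0 to 8.80), with none called higher and 1 lower. With the erythrocyte mean as a covariate, 4 of the 84 growth factor genes were called in WT (background 4.75%): dkk3b, inhbb and pdgfaa kept their call, inhbaa was added, and the call of the other 20 was lost. All 6 calls in dnHIF1a held with that covariate and smad7 was added, against a background of 10.3%. In WT the covariate went along with amputation, since the erythrocyte means of the WT groups did not overlap. A call lost or kept with it in WT therefore does not show what red cells contributed. The same holds for the difference of the responses, which contains the WT response. The contribution of red cells was not tested. The mean of 5 smooth muscle markers ran from 7.66 to 8.17 in unamputated and from 8.61 to 8.82 in amputated WT hearts (2 called higher and 1 lower), and from 8.82 to 9.29 and 9.58 to 9.72 in dnHIF1a (1 called higher). Of 7 endothelial markers (of 20) 2 were called lower in each line and none higher. Of 5 neutrophil markers (of 7) 1 was called lower in WT and 1 higher in dnHIF1a. The part of the epicardial, fibroblast, leukocyte, smooth muscle, endothelial and neutrophil cells in the results below was not tested.

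Within the TGF-beta family the activin subunit gene inhbb had the largest change after amputation. It encodes the beta B subunit that forms activin B, a ligand that signals through SMAD proteins. Its probe set (Entrez gene 30275) gave 6.13, 6.85 and 7.42 in unamputated WT, 8.37, 8.92 and 8.07 in amputated WT, 6.60, 5.79 and 6.54 in unamputated dnHIF1a, and 7.46, 7.87 and 7.00 in amputated dnHIF1a hearts. The amputated arrays lay above all unamputated arrays in each line. The rise was 1.65 ± 0.33 in WT (3.15-fold, adjusted p = 0.00377) and 1.13 ± 0.33 (adjusted p = 0.0497) in dnHIF1a, and the difference of the responses was -0.52 ± 0.47 (adjusted p = 0.623). The WT call held without each array, and the estimate went to 2.85 with the erythrocyte covariate. The dnHIF1a call was lost without any of 8 arrays, namely WT amputated 1 and 3, WT unamputated 2, dnHIF1a amputated 1 and 2 and every dnHIF1a unamputated array, with adjusted p from 0.0516 to 0.182. It was also lost after repeated quantile normalization (adjusted p = 0.0577), with median centring (0.0512) and with a trended robust prior (0.108).

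The other activin subunit gene on the array, inhbaa, which encodes the beta A subunit, was not called in either line, at 0.21 ± 0.12 (adjusted p = 0.212) in WT hearts and 0.25 ± 0.12 (adjusted p = 0.234) in dnHIF1a hearts. None of the 13 remaining BMP and GDF ligand genes was called after amputation (background 26.2% in WT and 11.0% in dnHIF1a). All 13 were dimmer than the median gene, and of such dim genes 16.2% were called in WT. Among them bmp2b, a ligand of the BMP branch, had a difference of 0.11 ± 0.09 in WT, with a 95% confidence interval from -0.10 to 0.31. The BMP ligand genes bmp4 and bmp7a had means of 3.84 and 3.71 over the 12 arrays, under 4, so no fold is given.

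The single TGF-beta ligand on the array, tgfb1a, rose in WT. It read 4.38, 4.33 and 4.24 in unamputated WT, 4.77, 4.75 and 5.08 in amputated WT, 4.67, 4.71 and 4.66 in unamputated dnHIF1a, and 5.0, 4.98 and 4.85 in amputated dnHIF1a hearts. The 3 unamputated WT arrays were the lowest of all 12, and the other 3 groups lay between 4.66 and 5.08. The difference was 0.55 ± 0.09 in WT (1.46-fold, adjusted p = 0.00105) and 0.26 ± 0.09 (adjusted p = 0.0899) in dnHIF1a. Between the lines these responses differed by -0.29 ± 0.13 (adjusted p = 0.268), which did not pass the test.

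Of the 4 receptors, tgfbr2b, a type II receptor for TGF-beta, rose (background 11.7%) and bmpr1ba, a type I receptor for BMPs, fell (14.5%) in WT. For tgfbr2b the arrays gave 7.98, 8.24 and 8.92 in unamputated WT, 9.17, 9.08 and 9.10 in amputated WT, 8.91, 8.91 and 8.91 in unamputated dnHIF1a, and 8.96, 8.78 and 8.82 in amputated dnHIF1a hearts. Unamputated WT hearts spread widely, their highest array reached the level of both dnHIF1a groups, and no unamputated WT array reached the amputated ones. The rise in WT was 0.74 ± 0.17 (adjusted p = 0.00888), its second probe set gave 0.45 ± 0.13 (adjusted p = 0.0219), and the dnHIF1a difference was -0.06 ± 0.17 with an interval from -0.43 to 0.32. The values of bmpr1ba were 5.33, 5.76 and 5.58 in unamputated and 5.09, 5.0 and 4.97 in amputated WT, without overlap. It fell by 0.54 in WT (SE 0.12, adjusted p = 0.00682), and its dnHIF1a difference of -0.21 ± 0.12 (adjusted p = 0.347) was not called. The type I BMP receptor gene bmpr1ab gave -0.19 ± 0.08 (adjusted p = 0.0880) in WT hearts and -0.22 ± 0.08 (adjusted p = 0.0968) in dnHIF1a hearts, and neither passed. The BMP receptor gene bmpr1aa was not called either, at 0.19 (adjusted p = 0.124) in WT hearts and -0.06 (0.772) in dnHIF1a hearts. Its other probe sets disagreed in WT, with 0.32 ± 0.10 (adjusted p = 0.0325) and -0.20 ± 0.11 (0.214).

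Among the 7 SMAD genes 1 was called after amputation, smad3b, which fell in WT (background 14.5% lower). Smad3 proteins carry TGF-beta and activin signals into the nucleus. The arrays of smad3b (Entrez gene 326283) read 6.08, 6.07 and 5.93 in unamputated WT, 5.75, 5.70 and 5.60 in amputated WT, 5.35, 5.20 and 5.17 in unamputated dnHIF1a, and 5.11, 5.14 and 5.32 in amputated dnHIF1a hearts. Every amputated WT array lay under every unamputated one, both dnHIF1a groups lay under all WT arrays, and the dnHIF1a groups overlapped. The WT difference was -0.34 ± 0.08 (adjusted p = 0.0104), and the call held without each array. Its paralog smad3a was not called, at 0.21 ± 0.11 (adjusted p = 0.192) in WT hearts and 0.10 ± 0.11 (adjusted p = 0.648) in dnHIF1a hearts. The inhibitory SMAD gene smad7, with the highest signal of the 7, had differences of opposite sign in the lines that did not pass the test, -0.27 ± 0.13 (adjusted p = 0.156) in WT hearts and 0.35 ± 0.13 (adjusted p = 0.116) in dnHIF1a hearts, and the difference of the responses was 0.62 ± 0.18 (adjusted p = 0.102).

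In the IGF family the ligand gene igf2b rose in both lines. IGF ligands of the second type are known as growth signals for heart muscle in embryos and regenerating hearts. The igf2b arrays (Entrez gene 324215) gave 7.80, 7.01 and 7.31 in unamputated WT, 8.21, 8.06 and 8.25 in amputated WT, 6.71, 6.88 and 6.78 in unamputated dnHIF1a, and 7.68, 7.56 and 7.66 in amputated dnHIF1a hearts. Amputated arrays lay above all unamputated arrays of their own line, and every dnHIF1a array lay under all WT arrays of the same condition. The rise was 0.80 ± 0.15 in WT (1.74-fold, adjusted p = 0.00251) and 0.84 ± 0.15 in dnHIF1a (1.79-fold, adjusted p = 0.00380). The difference between these was 0.04 ± 0.21, with a 95% confidence interval from -0.42 to 0.50. Both calls held without each array. The receptors igf1ra and igf1rb were not called after amputation. In WT they gave -0.19 ± 0.07 (adjusted p = 0.0647) and -0.21 ± 0.09 (adjusted p = 0.102), and in dnHIF1a 0.03 ± 0.07 (adjusted p = 0.857) and 0.15 ± 0.09 (adjusted p = 0.342). The second probe set of igf1rb, at a low mean of 4.18, gave 0.50 ± 0.11 (adjusted p = 0.0113) in dnHIF1a.

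Of the 5 IGF binding protein genes 3 rose in WT (background 11.7%). The differences of the 5 ran from 0.19 to 1.75 in WT and from -0.73 to 0.65 in dnHIF1a. The gene igfbp1a, known in zebrafish embryos as induced by low oxygen, had the largest difference among the 84 genes in WT. Its arrays (Entrez gene 317638) read 6.73, 7.57 and 6.45 in unamputated WT, 8.95, 7.79 and 9.27 in amputated WT, 7.24, 8.35 and 7.08 in unamputated dnHIF1a, and 8.49, 7.63 and 8.51 in amputated dnHIF1a hearts. In WT the lowest amputated array lay just above the highest unamputated one, and in dnHIF1a the groups overlapped. The rise in WT was 1.75 ± 0.43 (3.37-fold, adjusted p = 0.0112), with 1.57 ± 0.44 (adjusted p = 0.0227) from its second probe set, and the dnHIF1a difference was 0.65 ± 0.43 (adjusted p = 0.421). Their difference, -1.10 ± 0.60, had an interval from -2.41 to 0.21, so that it included 0. The WT call was lost without WT amputated 3 (1.45), where the adjusted p was 0.05, just over the threshold, and with the erythrocyte covariate the estimate was 0.02.

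The binding protein gene igfbp2a moved in opposite directions in the lines. Its arrays (Entrez gene 794176) gave 6.17, 6.57 and 5.81 in unamputated WT, 6.91, 6.91 and 6.87 in amputated WT, 7.28, 7.83 and 7.09 in unamputated dnHIF1a, and 6.59, 6.75 and 6.68 in amputated dnHIF1a hearts. Unamputated WT arrays were the lowest and unamputated dnHIF1a arrays the highest with no overlap, while all amputated arrays lay between 6.59 and 6.91. It rose by 0.71 ± 0.19 in WT (adjusted p = 0.0164) and fell in dnHIF1a, at -0.73 ± 0.19 (adjusted p = 0.0291). The difference of the responses was -1.44 ± 0.26 (adjusted p = 0.0180). The WT call was lost without WT unamputated 3 (0.53, adjusted p = 0.0592), the dnHIF1a call without any dnHIF1a array except unamputated 3 (adjusted p from 0.0538 to 0.101), and the difference without dnHIF1a amputated 1 (-1.40, adjusted p = 0.0514). With the erythrocyte covariate the WT estimate was 0.40 and the difference of the responses -1.16 (adjusted p = 0.186).

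For igfbp5b, whose product also binds matrix, the WT arrays were 7.83, 7.13 and 7.15 unamputated and 7.80, 7.79 and 7.98 amputated. The groups overlapped because unamputated array 1 stood above the others. The difference of 0.49 ± 0.16 (adjusted p = 0.0489) was called, but it lost the call without any of 11 arrays, all except that one, with adjusted p up to 0.171, after repeated quantile normalization (0.42, 0.0617) and with the WT groups fitted alone (0.49, 0.108). The remaining binding proteins igfbp1b and igfbp3 were not called in WT, at 0.57 ± 0.28 (adjusted p = 0.166) and 0.19 ± 0.13 (adjusted p = 0.314).

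Both PDGF ligand genes on the array rose in WT (background 11.7%). The pdgfaa arrays (Entrez gene 378480) gave 5.88, 5.77 and 5.63 in unamputated WT, 6.22, 6.38 and 6.33 in amputated WT, 6.21, 6.10 and 6.06 in unamputated dnHIF1a, and 6.40, 6.66 and 6.50 in amputated dnHIF1a hearts. Amputated arrays lay above unamputated ones in both lines, and unamputated WT hearts were the lowest group. The rise was 0.55 ± 0.09 (adjusted p = 0.00100) in WT hearts and 0.40 ± 0.09 (adjusted p = 0.0146) in dnHIF1a hearts, and the difference of the responses was -0.15 ± 0.13 with an interval from -0.43 to 0.12. The dnHIF1a call was lost without dnHIF1a amputated 2 (0.33, adjusted p = 0.0604), unamputated 2 (0.39, 0.0515) or unamputated 3 (0.36, 0.0572). The paralog pdgfab read 5.53, 5.52 and 5.60 in unamputated and 6.04, 5.85 and 6.04 in amputated WT hearts, which did not overlap. Its rise of 0.43 ± 0.11 (adjusted p = 0.0154) lost the call without WT amputated 1 (0.40, adjusted p = 0.0560) or 3 (0.40, 0.0541), and the dnHIF1a difference was 0.17 ± 0.11 (adjusted p = 0.418).

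**Figure D3:**
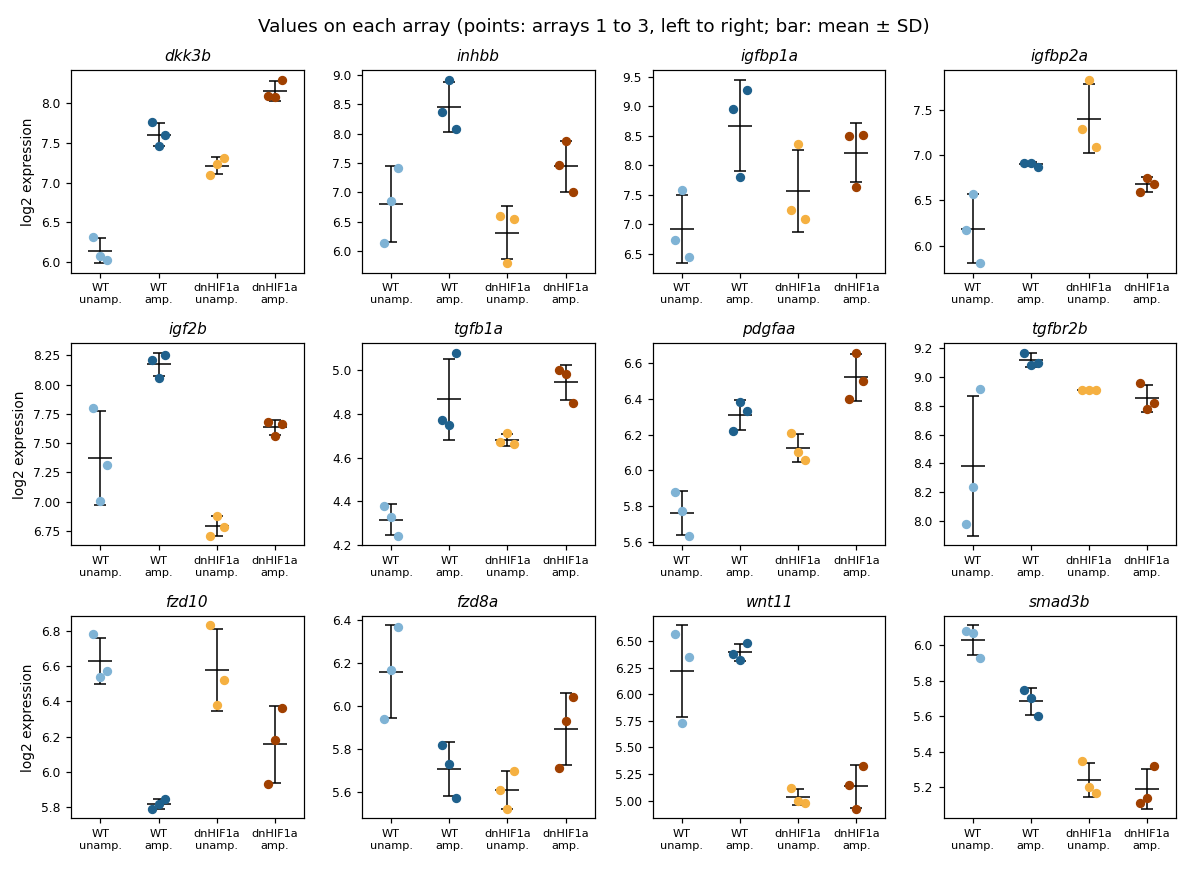
Log2 expression (vertical axes, each with its own range) of 12 growth factor signalling genes on every array of the 4 groups (horizontal axis; unamp. and amp. stand for unamputated and amputated). Points are arrays 1 to 3 from left to right, and bars are group means ± SD. The panels of dkk3b and igf2b show both lines rising, igfbp2a shows WT rising and dnHIF1a falling, and wnt11 and smad3b show every dnHIF1a array under every WT array.

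In the FGF family 1 of 17 members was called in WT (background 26.2%) and none in dnHIF1a (11.0%). All members except fgfr4 and fgfrl1a were dimmer than the median gene, and of such dim genes 16.2% were called in WT. The one called was the ligand gene fgf18a, which fell from 4.82, 4.89 and 4.79 to 4.52, 4.53 and 4.55 in WT without overlap. Its difference was -0.30 ± 0.08 (adjusted p = 0.0138) in WT hearts and -0.22 ± 0.08 (adjusted p = 0.0954) in dnHIF1a hearts. Among the 9 other ligand genes fgf6a, with the highest signal, gave -0.16 ± 0.08 (adjusted p = 0.204). The receptor genes fgfr2 and fgfr4 were not called, with WT differences of 0.04 ± 0.11 (interval -0.20 to 0.28) and -0.04 ± 0.11 (-0.28 to 0.20). The decoy-like receptor gene fgfrl1a gave -0.35 ± 0.20 (adjusted p = 0.225) in WT hearts and 0.20 ± 0.20 (adjusted p = 0.624) in dnHIF1a hearts, with 1 unamputated WT array at 8.54 and the other 11 arrays between 7.36 and 8.0.

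Targets and feedback inhibitors of FGF signalling lie outside the family. Of 9 measured genes on a list of such genes 4 were called higher in WT (background 11.7%) and none lower (14.5%), with a median difference of 0.57. They were the ETS factor genes etv5b at 1.81 ± 0.21 (adjusted p = 9.82e-05), etv5a at 0.82 ± 0.12 (adjusted p = 0.000406) and etv4 at 0.57 ± 0.12 (adjusted p = 0.00476), and the Sprouty gene spry4 at 1.41 ± 0.20 (adjusted p = 0.000407). These 4 calls held without each array, and those of etv4 and etv5a were lost with the erythrocyte covariate (adjusted p = 0.0663 and 0.0914). With the median of its probe sets etv5a stood at 0.42. In dnHIF1a 3 of 9 were called higher (background 5.83%). These were etv5b at 1.25 ± 0.21 (adjusted p = 0.00244), with a call that held without each array, and etv4 and spred1, whose calls did not. With the median of its probe sets spred1 went from 0.28 to -0.0067 (adjusted p = 0.973) in dnHIF1a. The difference of the responses called none of the 9 in limma, and 3 had an unadjusted p under 0.05 (beside 1663 of 8793 genes).

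Neuregulin and ERBB genes were not called in any of the 5 comparisons. The signal of nrg1, whose product is a mitogen for zebrafish heart muscle, lay between 3.56 and 3.82 on the 12 arrays and its mean was under 4, so no fold is given. The second neuregulin gene nrg2a gave -0.26 ± 0.09 (adjusted p = 0.0547) in WT. The receptor gene erbb2 read 9.25, 9.19 and 9.37 in unamputated WT, 9.36, 9.44 and 9.25 in amputated WT, 9.40, 9.28 and 9.27 in unamputated dnHIF1a, and 9.53, 9.53 and 9.47 in amputated dnHIF1a hearts. The WT groups overlapped and the dnHIF1a amputated arrays were the highest. Its differences were 0.08 ± 0.07 in WT and 0.19 ± 0.07 (adjusted p = 0.136) in dnHIF1a, with intervals from -0.08 to 0.24 and 0.03 to 0.36. Of 26 genes on a list of shared kinase-pathway genes 2 were called higher (background 11.7%) and 3 lower (14.5%) in WT. Of these the phosphatase gene ptpn11b, at 0.83 ± 0.09 (adjusted p = 5.88e-05) in WT hearts and -0.04 ± 0.09 (adjusted p = 0.855) in dnHIF1a hearts, differed between the responses at -0.87 ± 0.13 (adjusted p = 0.00707). In dnHIF1a 2 were called higher (background 5.83%) and 1 lower (5.13%), the last being stc2a, a stanniocalcin gene, at -1.48 ± 0.14 (adjusted p = 5.12e-05). Its WT difference was -0.37 ± 0.14 (adjusted p = 0.0744), and the responses differed by -1.11 ± 0.20 (adjusted p = 0.0173). Both ptpn11b and stc2a were also called between the lines in unamputated hearts, and these calls held without each array. The line difference in unamputated hearts is part of the difference of the responses, so these calls are not separate support for it. In amputated hearts ptpn11b was called lower in dnHIF1a, at -0.33 (adjusted p = 0.0307), a call lost without some arrays. With the erythrocyte covariate the difference of the responses was no longer called for ptpn11b (-0.82 ± 0.17, adjusted p = 0.0903) or stc2a (-1.17 ± 0.27, 0.112). Both estimates stayed close to those without the covariate, at a larger SE.

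In the WNT family the DKK gene dkk3b rose in both lines, with the smallest adjusted p of the 84 genes in each. The protein is a secreted member of the dickkopf family whose effect on WNT signalling is less settled than that of its relatives. The arrays of dkk3b (Entrez gene 100038765) gave 6.32, 6.07 and 6.03 in unamputated WT, 7.76, 7.46 and 7.60 in amputated WT, 7.10, 7.23 and 7.31 in unamputated dnHIF1a, and 8.09, 8.08 and 8.30 in amputated dnHIF1a hearts. Amputated arrays lay above unamputated ones in each line, dnHIF1a arrays lay above WT arrays in each condition, and no groups overlapped. The rise was 1.47 ± 0.10 in WT (2.76-fold, adjusted p = 1.71e-06) and 0.94 ± 0.10 in dnHIF1a (1.92-fold, adjusted p = 0.000159). Both calls held without each array and with the erythrocyte covariate. The smaller rise in dnHIF1a, with a difference of -0.52 ± 0.15 (adjusted p = 0.0904), did not pass the test.

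The gene dkk1b encodes a secreted inhibitor that blocks the LRP co-receptors of WNT. Its arrays read 5.20, 5.26 and 5.27 in unamputated WT, 5.48, 5.37 and 5.54 in amputated WT, 5.09, 5.18 and 5.16 in unamputated dnHIF1a, and 5.66, 5.58 and 5.58 in amputated dnHIF1a hearts. Amputated arrays were above unamputated arrays in both lines, by little in WT. The rise was 0.46 ± 0.07 (adjusted p = 0.000937) in dnHIF1a, with a call that held without each array, and 0.22 ± 0.07 (adjusted p = 0.0323) in WT. The WT call was lost without WT amputated 1 or 3 or any unamputated WT array, with adjusted p from 0.0525 to 0.114 and with the WT groups fitted alone (adjusted p = 0.110), and the estimate fell to 0.12 with the erythrocyte covariate. The responses differed by 0.24 ± 0.09 (adjusted p = 0.207), which was not called.

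Frizzled receptor genes moved in both directions in WT, with 3 of 8 lower (background 14.5%) and 1 higher (11.7%), and none was called in dnHIF1a (11.0%). For fzd10 the arrays gave 6.78, 6.54 and 6.57 in unamputated WT, 5.79, 5.82 and 5.85 in amputated WT, 6.83, 6.38 and 6.52 in unamputated dnHIF1a, and 5.93, 6.18 and 6.36 in amputated dnHIF1a hearts. The amputated WT arrays were the lowest of the 12 and lay close together, and the dnHIF1a groups did not overlap. It fell in WT, at -0.81 ± 0.13 (adjusted p = 0.000716), and the dnHIF1a difference was -0.42 ± 0.13 (adjusted p = 0.0533). The second probe set of fzd10 gave a smaller value that was not called, -0.17 ± 0.08 (adjusted p = 0.159), and the median of both was -0.49 (adjusted p = 0.00320).

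The fzd8a arrays (Entrez gene 58073) read 5.94, 6.17 and 6.37 in unamputated WT, 5.82, 5.73 and 5.57 in amputated WT, 5.61, 5.52 and 5.70 in unamputated dnHIF1a, and 5.71, 5.93 and 6.04 in amputated dnHIF1a hearts. In WT the amputated arrays lay under the unamputated ones and in dnHIF1a above them. It fell in WT, at -0.45 ± 0.12 (adjusted p = 0.0148), and the dnHIF1a difference was 0.28 ± 0.12 (adjusted p = 0.162). The difference of the responses was 0.74 ± 0.16 (adjusted p = 0.0385), and this call was lost without any of 8 arrays (adjusted p from 0.0571 to 0.1), the exceptions being WT unamputated 1 and 3, dnHIF1a amputated 1 and dnHIF1a unamputated 3. The WT call was lost without WT amputated 3 (-0.39, adjusted p = 0.0613) or unamputated 3 (-0.35, 0.0553). The second probe set of fzd8a showed neither, at -0.09 ± 0.09 (adjusted p = 0.489) in WT and 0.13 ± 0.13 (adjusted p = 0.646) for the difference. With the median of both probe sets the WT value was -0.27 (adjusted p = 0.0370) and the difference of responses 0.435 (0.0865). The third receptor that fell, fzd5, went from 5.85, 5.86 and 5.79 to 5.65, 5.35 and 5.30 in WT. The fall of 0.40 ± 0.11 (adjusted p = 0.0175) lost its call without WT amputated 2 (-0.36, adjusted p = 0.0594) or 3 (-0.33, 0.0719) and with array weights (-0.34, 0.0784).

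The receptor gene fzd7b rose in WT. Its arrays were 6.48, 6.26 and 6.69 in unamputated WT, 7.06, 7.04 and 7.02 in amputated WT, 6.91, 7.05 and 7.13 in unamputated dnHIF1a, and 7.34, 7.24 and 7.35 in amputated dnHIF1a hearts. Unamputated WT hearts were the lowest group, and amputated WT and unamputated dnHIF1a hearts covered much the same range. The rise was 0.56 ± 0.10 (adjusted p = 0.00168) in WT, with 0.33 ± 0.11 (adjusted p = 0.0396) from the second probe set, and 0.28 ± 0.10 (adjusted p = 0.102) in dnHIF1a. The paralog fzd7a was not called in either line, at 0.33 ± 0.19 (adjusted p = 0.230) and 0.43 ± 0.19 (adjusted p = 0.184). The gene fzd9b, with the highest signal of this role, gave -0.31 ± 0.15 (adjusted p = 0.167) in WT hearts and 0.38 ± 0.15 (adjusted p = 0.155) in dnHIF1a hearts.

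Of the 10 WNT ligand genes 2 fell in WT (background 14.5%) and none was called in dnHIF1a (11.0%). The gene wnt4 read 5.88, 6.02 and 5.89 in unamputated WT, 5.58, 5.62 and 5.58 in amputated WT, 5.82, 5.92 and 6.07 in unamputated dnHIF1a, and 5.90, 5.96 and 6.07 in amputated dnHIF1a hearts. The 3 amputated WT arrays were the lowest of the 12, and the other 3 groups overlapped. The WT difference was -0.34 ± 0.08 (adjusted p = 0.00923), and in dnHIF1a it was 0.04 ± 0.08 with an interval from -0.13 to 0.21. Their difference, 0.38 ± 0.11 (adjusted p = 0.104), did not pass. The ligand gene wnt8b fell by less at a low signal, at -0.30 ± 0.07 (adjusted p = 0.00778) in WT, and was no longer called when the fit held the WT groups only (adjusted p = 0.0512). The gene wnt11 was not called after amputation in either line, at 0.18 ± 0.17 (adjusted p = 0.476) and 0.10 ± 0.17 (adjusted p = 0.802), although it differed between the lines.

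Of 31 measured WNT pathway genes outside the family, 7 were called higher (background 11.7%) and 3 lower (14.5%) in WT. Their median was 0.02, beside -0.06 over all genes. Calls that held without each array were those of the secreted WNT antagonist genes frzb at 1.91 ± 0.25 (adjusted p = 0.000268) and sfrp1a at 1.05 ± 0.22 (adjusted p = 0.00443), of notum1b, which encodes an enzyme that inactivates WNT ligands, at 1.02 ± 0.12 (adjusted p = 0.000150), of wls, needed for WNT secretion, at 0.42 ± 0.09 (adjusted p = 0.00482), of the transcription factor gene tcf7l1b at 0.42 ± 0.07 (adjusted p = 0.00136) and of the kinase gene csnk1e, which fell, at -0.63 ± 0.14 (adjusted p = 0.00850). The call of sfrp1a was lost with the erythrocyte covariate (adjusted p = 0.204) and so was that of csnk1e (0.375). The other 4 calls in WT were lost without at least 1 array. In dnHIF1a 3 of 31 were called, all higher (background 5.83%), of which notum1b, at 0.82 ± 0.12 (adjusted p = 0.00131), held without each array. The frzb difference in dnHIF1a was 1.12 ± 0.25 (adjusted p = 0.0151), and it was lost without dnHIF1a amputated 3 (0.89, adjusted p = 0.0651) or unamputated 1 (0.90, 0.0643).

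TGF-beta and BMP pathway genes outside the family showed 6 of 33 called higher (background 11.7%) and 4 lower (14.5%) in WT, with a median difference of -0.01. Calls that held without each array were upward for the follistatin-like gene fstl1b at 1.36 ± 0.16 (adjusted p = 0.000126), the matricellular genes ccn2a at 0.95 ± 0.15 (adjusted p = 0.000919) and thbs1b at 0.90 ± 0.17 (adjusted p = 0.00295) and the vascular receptor gene acvrl1 at 0.82 ± 0.14 (adjusted p = 0.00147). They were downward for id2b, a BMP-responsive gene, at -1.01 ± 0.19 (adjusted p = 0.00279), for the myostatin gene mstnb at -0.71 ± 0.09 (adjusted p = 0.000194) and for the activin receptor gene acvr1ba at -0.35 ± 0.07 (adjusted p = 0.00484). With the erythrocyte covariate the calls of thbs1b (0.45, adjusted p = 0.340), acvrl1 (0.164) and acvr1ba (0.0772) were lost. In dnHIF1a 2 were called, both higher (background 5.83%). Both held without each array, ccn2a at 0.97 ± 0.15 (adjusted p = 0.00167) and id2a at 0.82 ± 0.16 (adjusted p = 0.00726). The difference of the responses called fstl1b at -1.03 ± 0.23 (adjusted p = 0.0364) and mstnb at 0.63 ± 0.13 (adjusted p = 0.0235). Each of these was lost without some arrays, and that of fstl1b also with array weights (adjusted p = 0.0594). With the erythrocyte covariate both calls were lost, at -0.91 ± 0.30 (adjusted p = 0.255) and 0.59 ± 0.17 (0.190). Both genes were also called between the lines in unamputated hearts, where the calls held without each array. That comparison is part of the difference of the responses and uses the same arrays, so it is not separate support.

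The 4 remaining proteins have symbols that match the families but other functions. The gene tgfbi encodes a matrix protein named for its induction by TGF-beta, and it read 5.10, 4.93 and 5.23 in unamputated and 5.59, 5.72 and 5.86 in amputated WT hearts. It rose in WT, at 0.64 ± 0.11 (adjusted p = 0.00188), and gave 0.04 ± 0.11 (adjusted p = 0.876) in dnHIF1a, and the difference of the responses was -0.59 ± 0.16 (adjusted p = 0.0803). The gene fgfr1op2, named for a fusion partner of an FGF receptor, read 8.12, 8.24 and 8.30 in unamputated WT, 8.84, 8.66 and 8.80 in amputated WT, 8.32, 8.42 and 8.39 in unamputated dnHIF1a, and 8.27, 8.44 and 8.35 in amputated dnHIF1a hearts. Amputated WT hearts stood above the 3 other groups. The rise in WT was 0.55 ± 0.08 (adjusted p = 0.000406), the dnHIF1a difference -0.02 ± 0.08 with an interval from -0.19 to 0.14, and the difference of the responses -0.57 ± 0.11 (adjusted p = 0.0207). That difference lost its call without WT amputated 1 (-0.53, adjusted p = 0.0560), dnHIF1a amputated 1 (-0.53, 0.0592) or dnHIF1a unamputated 2 (-0.55, 0.0579), and with the erythrocyte covariate (-0.51, 0.181).

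The kinase gene bmp2k, which is named here after its values were seen, rose by 0.28 ± 0.07 (adjusted p = 0.0185) in WT and lost the call without WT amputated 1 or 3 or unamputated 3 (adjusted p from 0.0556 to 0.0682) and with the WT groups fitted alone (0.0722). The receptor-like gene pdgfrl was not called in either line, at 0.29 ± 0.16 (adjusted p = 0.228) in WT hearts and 0.49 ± 0.16 (adjusted p = 0.0849) in dnHIF1a hearts. Its second probe set, at a low mean of 3.89, was called in WT at 0.33 ± 0.09 (adjusted p = 0.0202). In dnHIF1a that probe set gave 0.24 ± 0.09 (0.116). Between the lines in amputated hearts the first probe set gave 0.52 (adjusted p = 0.0551) and the second -0.26 (0.0743), neither called.

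The lines differed for 11 of the 84 genes in unamputated hearts (7 higher and 4 lower in dnHIF1a) and for 11 in amputated hearts (5 higher and 6 lower). The background was 12.5% of all genes in unamputated hearts (6.30% higher and 6.24% lower) and 14.2% in amputated hearts (6.77% higher and 7.43% lower). In total 18 genes were called in at least 1 condition (background 21.4%) and 4 of them in both (background 5.29%), each in the same direction: dkk3b was higher and wnt11, smad3b and igf2b were lower in dnHIF1a. The groups did not overlap for 23 genes in unamputated hearts (background 28.2%) and for 32 in amputated hearts (33.7%). Each comparison between the lines shares its WT arrays with the WT response and its dnHIF1a arrays with the dnHIF1a response. Calls in both are therefore not independent. The unamputated WT values of dkk3b, igfbp2a, igfbp5b, fzd7b, pdgfaa and tgfb1a enter both their WT rise and their higher level in unamputated dnHIF1a hearts. Levels of marker genes also differed between the lines. In unamputated hearts the mean of 5 smooth muscle markers (of 13) ran from 7.66 to 8.17 in WT and from 8.82 to 9.29 in dnHIF1a. Of the 5, 4 were called higher and 1 lower in dnHIF1a. The epicardial and fibroblast mean ran from 7.11 to 7.28 in WT and from 7.55 to 7.68 in dnHIF1a. Of these 13 markers 5 were called higher in unamputated dnHIF1a hearts and none lower, and 10 of the 15 leukocyte markers were called lower. In amputated hearts the smooth muscle mean ran from 8.61 to 8.82 in WT and from 9.58 to 9.72 in dnHIF1a, where 3 of 5 were called higher. There 8 of 15 leukocyte, 6 of 13 epicardial and fibroblast and 5 of 18 erythrocyte markers were called lower in dnHIF1a, and none of these higher. The difference of the responses (dnHIF1a minus WT) was called under 0 for 6 of the 13 epicardial and fibroblast markers (background 1.60%). It was called above 0 for none of them (background 0.989%). In each of the smooth muscle, leukocyte and erythrocyte lists it was called above 0 for 1 marker and under 0 for none. Of 7 endothelial markers (of 20) 2 were called lower in unamputated dnHIF1a hearts, and 1 higher and 2 lower in amputated ones. Of 5 neutrophil markers (of 7) 2 were called lower in unamputated dnHIF1a hearts and none was called in amputated ones. The part of these cells in the differences between the lines was not tested.

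**Figure D4:**
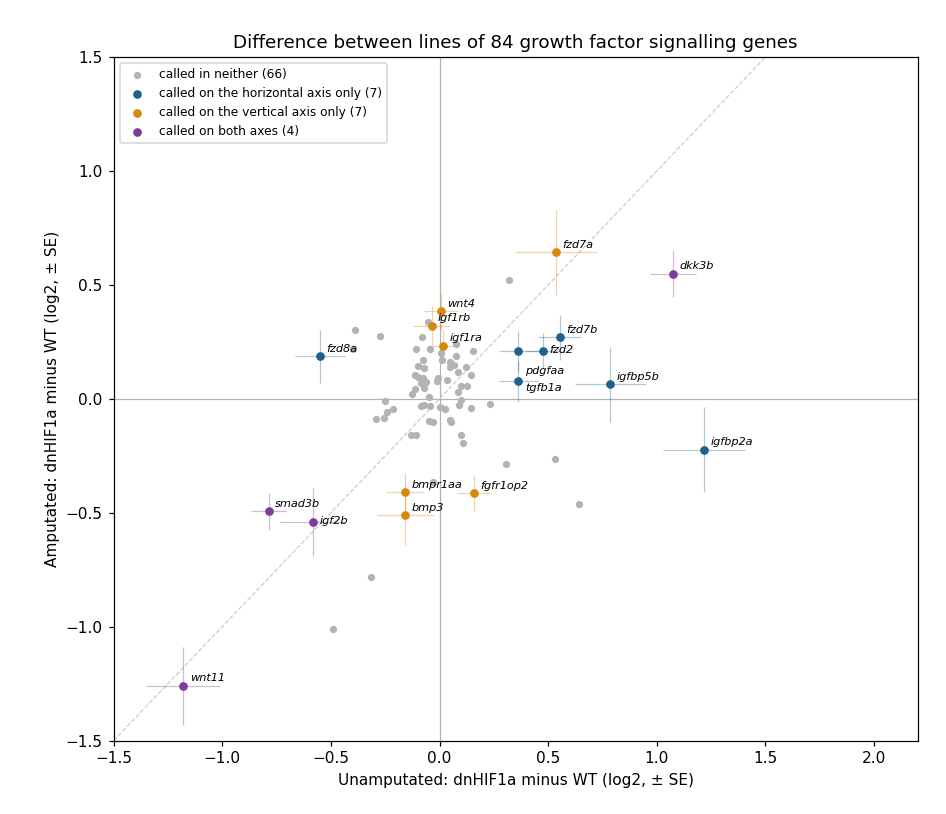
Difference between dnHIF1a and WT hearts (log2, ± SE) in unamputated hearts on the horizontal and in amputated hearts on the vertical axis, 1 point per gene, 84 genes, 3 arrays per group; the dashed line marks equal differences. The axes share no array. The 4 genes called in both conditions are wnt11, smad3b and igf2b at the lower left and dkk3b at the upper right.

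Every dnHIF1a array was lower than every WT array for wnt11, a ligand of the branch of WNT signalling that does not use beta-catenin and that guides cell movements in the zebrafish embryo. The wnt11 arrays (Entrez gene 30283) gave 6.56, 5.73 and 6.35 in unamputated WT, 6.38, 6.32 and 6.48 in amputated WT, 5.12, 5.0 and 4.98 in unamputated dnHIF1a, and 5.15, 4.92 and 5.33 in amputated dnHIF1a hearts. The 6 dnHIF1a arrays lay between 4.92 and 5.33 and the 6 WT arrays between 5.73 and 6.56. The difference was -1.18 ± 0.17 in unamputated (adjusted p = 0.000713) and -1.26 ± 0.17 in amputated hearts (adjusted p = 0.000530). Both calls held without each array and with the erythrocyte covariate. The same holds for smad3b, at -0.79 ± 0.08 (adjusted p = 6.08e-05) in unamputated and -0.49 ± 0.08 (adjusted p = 0.00230) in amputated hearts, and for dkk3b, at 1.07 ± 0.10 (adjusted p = 3.46e-05) and 0.55 ± 0.10 (adjusted p = 0.00488).

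The igf2b level was lower in dnHIF1a by 0.58 ± 0.15 in unamputated (adjusted p = 0.0237) and by 0.54 ± 0.15 in amputated hearts (adjusted p = 0.0326). The first call was lost without dnHIF1a unamputated 1 (-0.54, adjusted p = 0.0866) or 3 (-0.58, 0.0626) and with the compared groups fitted alone (-0.58, 0.0984), and without WT unamputated 1, whose igf2b value was the highest of its group, the estimate was -0.37 (0.0369). The second call was lost without WT amputated 1 or 3 or any dnHIF1a amputated array, with adjusted p from 0.0667 to 0.109, and with the erythrocyte covariate (-0.46, 0.197).

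Another 7 genes were called between the lines in unamputated and not in amputated hearts, and among these the test of the difference between the conditions called igfbp2a and fzd8a. Higher in unamputated dnHIF1a hearts were igfbp2a at 1.22 ± 0.19 (adjusted p = 0.00117), igfbp5b at 0.79 ± 0.16 (adjusted p = 0.00764), fzd7b at 0.55 ± 0.10 (adjusted p = 0.00306) and fzd2 at 0.48 ± 0.08 (adjusted p = 0.00214), and lower was fzd8a at -0.55 ± 0.12 (adjusted p = 0.00873). These 5 calls held without each array, the second probe set of fzd7b gave 0.38 ± 0.11 (adjusted p = 0.0335), and that of fzd8a gave -0.11 ± 0.09 (adjusted p = 0.516). The ligand genes pdgfaa, at 0.36 ± 0.09 (adjusted p = 0.0190), and tgfb1a, at 0.36 ± 0.09 (adjusted p = 0.0196), were also higher. The pdgfaa call was lost without WT unamputated 3 (0.30, adjusted p = 0.0657) or dnHIF1a unamputated 1 (0.32, 0.0836). The tgfb1a call was lost without those arrays (0.33, 0.0622 and 0.37, 0.0575), without dnHIF1a unamputated 2 (0.35, 0.0667), and with the erythrocyte covariate (0.34, 0.0550). In amputated hearts none of these 7 was called, and the largest remaining difference was 0.27 ± 0.10 (adjusted p = 0.0965) for fzd7b.

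The remaining 7 were called between the lines in amputated and not in unamputated hearts, and among these the difference between the conditions was called for fgfr1op2. Higher in dnHIF1a was wnt4 at 0.38 ± 0.08 (adjusted p = 0.00740), a call that held without each array and with the covariate. Lower were fgfr1op2 at -0.41 ± 0.08 (adjusted p = 0.00441) and the BMP receptor gene bmpr1aa at -0.41 ± 0.09 (adjusted p = 0.00802), whose calls held without each array. For bmpr1aa the 2 other probe sets gave -0.51 ± 0.10 (adjusted p = 0.00509) and -0.03 ± 0.11 (adjusted p = 0.903), and the call was lost with the median of its probe sets (-0.15, adjusted p = 0.414) and with the erythrocyte covariate (-0.37, 0.0766). The ligand gene bmp3, an antagonist of BMP signalling in mammals, read 6.15, 6.52 and 6.33 in amputated WT and 5.73, 5.72 and 6.02 in amputated dnHIF1a hearts. Its difference of -0.51 ± 0.13 (adjusted p = 0.0216) was lost without WT amputated 2 or 3 or dnHIF1a amputated 1 or 2 (adjusted p from 0.0576 to 0.0883) and with the covariate (-0.59, 0.0568).

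Receptor genes that were higher in amputated dnHIF1a hearts were fzd7a at 0.64 ± 0.19 (adjusted p = 0.0402), igf1rb at 0.32 ± 0.09 (adjusted p = 0.0279) and igf1ra at 0.23 ± 0.07 (adjusted p = 0.0399). The fzd7a call was lost without any of 5 arrays (all 3 dnHIF1a amputated and WT amputated 1 and 2, adjusted p up to 0.153) and with the covariate (0.44, 0.293). The igf1rb call was lost without WT amputated 1 or 3 or dnHIF1a amputated 1 or 3 (adjusted p up to 0.102) and with the covariate (0.30, 0.153). Its second probe set, at a low mean of 4.18, gave 0.46 ± 0.11 (adjusted p = 0.0147). The igf1ra call was lost without any of 8 arrays, the 6 amputated ones and dnHIF1a unamputated 1 and 2 (adjusted p up to 0.116), with a trended robust prior (0.0627), with the compared groups fitted alone (0.0501) and with the covariate (0.166). The activin gene inhbb was lower in amputated dnHIF1a hearts by 1.01 ± 0.33 without passing the test (adjusted p = 0.0651), and with the erythrocyte covariate its difference was -1.69 (0.00447).

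**Figure D5:**
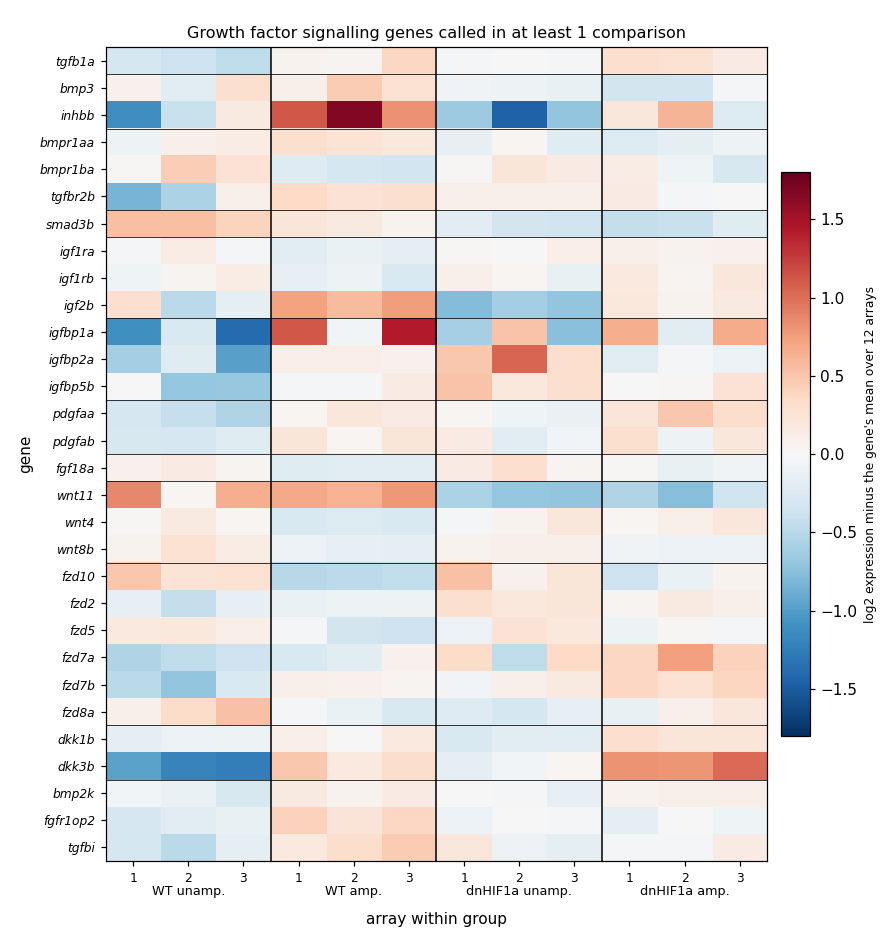
Log2 expression minus the gene's own mean over 12 arrays (colour scale) for the 30 growth factor signalling genes called in at least 1 of the 5 comparisons (rows, grouped by role with thin lines) on each array (columns, 3 per group). The row of dkk3b runs from blue in unamputated WT to red in amputated dnHIF1a, and the row of wnt11 separates the lines in both conditions.

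Of the 84 genes 30 were called in at least 1 of the 5 comparisons, against 39.7% of all genes, and 54 in none. The 54 include 9 of 10 FGF ligands, all 7 FGF receptor and binding protein genes, 13 of 15 BMP, GDF and activin ligands and 6 of 7 SMAD genes. A missing call does not show that a gene was unchanged.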

How the data were processed

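Each array was deposited as log2 signals, 1 per probe set. Per the submitters' processing notes the authors used RMA and limma, whose versions and roles are not given in the sources used here. The values were used as deposited, with 115 control probe sets left out. Gene symbols came from the platform annotation, which gives 1 gene for 10795 probe sets, several for 135 and none for 4572, and 10711 were matched to a RefSeq gene table. The 84 members, the marker and pathway lists and the rule for named genes were chosen with earlier results of these data known. That rule took, per comparison, up to 12 called members in each direction with the largest difference whose groups did not overlap (for the difference of responses, all called), per role the members with the highest mean and with the smallest p in each response, and a list of genes known from heart regeneration, and it names 47 of the 84.

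With limma 3.58.1 in R 4.3.3, 1 mean for each group was fitted over the 12 arrays (default empirical Bayes, 8 residual and 4.46 prior degrees of freedom). The two-sided p-values of each of 5 comparisons were Benjamini-Hochberg adjusted across 15502 probe sets, and the script was tested on simulated data. Deviations of arrays that share a replicate number correlated between -0.191 and 0.133, so the number was a block only as an alternative. The alternatives were repeated quantile normalization, median centring, a filter on dim probe sets, a trended robust prior, array weights, the compared groups alone, an erythrocyte covariate, the median of probe sets, a stricter threshold and leaving out each array. The number of arrays limits the precision. Probe sequences and positions were not used here.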

Additional observations from a re-analysis of the deposited data

Results flagged for a closer look

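The limma interaction test called a difference between the lines in the response to amputation for 3 of the 84 growth factor genes (background 2.59%). For igfbp2a the dnHIF1a response minus the WT response was -1.44 (adjusted p = 0.0180), with a rise in WT and a fall in dnHIF1a. For fgfr1op2 it was -0.57 (adjusted p = 0.0207), with a rise in WT. For fzd8a it was 0.74 (adjusted p = 0.0385), with a fall in WT. The second probe set of fzd8a gave 0.13 (adjusted p = 0.646). With the median of both probe sets the call was lost (0.435, adjusted p = 0.0865). All 3 calls were lost with the erythrocyte covariate, where the differences were -1.16 for igfbp2a, -0.51 for fgfr1op2 and 0.69 for fzd8a. The difference of the responses contains the WT response, in which the covariate went along with amputation. These lost calls therefore do not show what red cells contributed. Each call was also lost without at least 1 array.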

How the results depend on the processing

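No direction was reversed for any of the called values of the named genes. With the erythrocyte covariate the number of the 84 genes called went from 23 to 4 in WT, from 3 to 0 for the difference of responses and from 11 to 6 between the lines in amputated hearts. That covariate went along with amputation in WT, and the difference of responses contains the WT response. These 2 counts therefore do not show what red cells contributed. At an adjusted p under 0.01 it was 13 in WT, 3 in dnHIF1a, 0 for the difference of responses and 6 between the lines in amputated hearts. Array weights gave 10 in dnHIF1a. Leaving out each array gave 18 to 26 in WT, 3 to 7 in dnHIF1a, 1 to 5 for the difference of responses, 8 to 12 between unamputated lines and 6 to 13 between amputated lines. The count was 3 in dnHIF1a without dnHIF1a amputated 2, 1 for the difference of responses without WT amputated 1, dnHIF1a amputated 1 or dnHIF1a unamputated 2 and 5 without WT unamputated 1 or 3. Between amputated lines it was 6 without dnHIF1a amputated 1 and 7 without WT amputated 1 or dnHIF1a amputated 2. With the replicate number as a block the counts were 22, 5, 2, 11 and 8 in that order. The block ended the calls of dkk1b in WT (adjusted p = 0.0510), inhbb in dnHIF1a (0.0794), fzd8a for the difference of responses (0.0508), and fzd7a (0.0530), igf1rb (0.0514) and igf1ra (0.0635) between amputated lines. The cause of these changes was not tested. Shares of all genes called under these settings are not given here, apart from the responses with the erythrocyte covariate. In the main limma fit 18 of the 84 had an unadjusted p under 0.05 for the difference of responses, beside 1663 of 8793 genes. Of 53 called values of named genes 19 kept the call under every alternative and 32 without each array. Low signals and 3 arrays per group limit small changes.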
